A study of Mus musculus with 8 samples.

Results

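The cell cycle genes described here are 39 genes in 4 groups, chosen by name as genes of DNA replication (10), of G2 and mitosis (21), G1 cyclins (5) and inhibitors of the cyclin-dependent kinases (3). They were found among the 41388 genes of the deposited tables by matching Ensembl identifiers to symbols of the GENCODE M21 annotation of GRCm38, and all 39 were present. The libraries come from macrophages of eWAT, the epididymal white fat, a visceral depot. They were sorted from the collagenase-digested stromal fraction of 4 male MitoFat mice fed normal chow, a strain whose adipocytes alone carry a mitochondrial reporter. The mtD2+ group is live CD45+ F4/80+ CD64+ cells that carried the reporter signal, and the mtD2- group is cells of the same gate without it. Each mouse gave 1 library of each, so that the 8 libraries form 4 pairs, and the question of the design is how macrophages that received adipocyte mitochondria differ from those that did not. The labels do not state the age of the mice, the promoter behind the reporter or how many cells were sorted.

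Cyclins of the D type bind the kinases Cdk4 and Cdk6 and start the inactivation of the retinoblastoma protein, which frees E2F factors to switch on the genes of DNA replication. Genes of mitosis follow later in the cycle, many of them through a promoter element called the CHR (cell cycle genes homology region) together with CCAAT boxes, while p21, p27 and p18 (encoded by Cdkn1a, Cdkn1b and Cdkn2c) inhibit the kinases. Macrophages of adipose tissue can divide where they reside, and RNA of mitosis genes in a sorted population comes from the cells that are cycling at the time.

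The tables held 18462287 to 27464399 gene-assigned counts per library. The summed level of 10 macrophage markers, Adgre1 (F4/80) and Fcgr1 (CD64) among them, was 16410 to 20330 CPM in mtD2+ and 19670 to 23190 CPM in mtD2- libraries. CPM is the read count of a gene relative to the library's total over the tested genes, and all levels are CPM scaled by TMM factors, which correct for differences in RNA composition between libraries. The mtD2- library of mouse 4 stood apart, with 14 fibroblast and adipocyte precursor markers summing to 4690 CPM, against 631 to 926 CPM in the mtD2+ and 1884 to 2046 CPM in the other mtD2- libraries. Markers of dendritic cells (181 to 217 CPM in mtD2+ and 136 to 218 CPM in mtD2-), neutrophils (198 to 264 and 216 to 255 CPM) and endothelial cells (8.77 to 31.95 and 8.96 to 15.6 CPM) held 0 calls by edgeR among the 6, 2 and 3 that were tested, as by limma voom, while 1 dendritic and 1 endothelial marker were higher at an unadjusted p under 0.05 and by DESeq2. The replicates are the 4 mice.

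The promoters of the members were searched for 3 sequence motifs, a property that played no part in choosing the genes or in the counts, and no difference in motif shares was tested. RefSeq promoters of build GRCm38.p6, from 250 bases before to 50 bases after the start that RefSeq gives, were at hand for 30 of the 39 genes. An E2F core (TTCCCGC or TTGGCGC, either strand) was found in 5 of 9 replication gene promoters and in 3 of 16 mitosis gene promoters, against 8.8% of 18695 promoters in all. The CHR (TTTGAA, either strand) was found in 1 of 9 replication promoters and in 12 of 16 mitosis promoters, against 16.2% of all promoters. A CCAAT box (CCAAT, either strand) was found in 8 of 9 and 15 of 16, against 38.3% of all promoters, and all 12 mitosis promoters with a CHR also held CCAAT. These matches describe letters and not bound sites. Neither Ccnd3 nor Ccne1, the 2 G1 cyclin genes with a promoter entry, held any of these letters in the window.

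The promoters of Pcna and Mcm6, the 2 replication genes that passed the test between the populations, and of Mki67, Plk1 and Ccnb2, the 3 mitosis genes that came closest to it, are shown 5′ to 3′ with the matched motifs in capitals. Pcna (chr2:132253131-132253430, minus strand) held 1 CCAAT box and no E2F core by these letters in this window, while Mcm6 (chr1:128359656-128359955, minus strand) held 2 E2F cores and 2 CCAAT boxes. Mki67 (chr7:135716330-135716629, minus strand) held 3 CCAAT boxes, 2 CHR elements and 1 E2F core, Plk1 (chr7:122159185-122159484, plus strand) 1 CCAAT box and 1 CHR, and Ccnb2 (chr9:70421505-70421804, minus strand) 3 CCAAT boxes and 2 CHR elements. No motif matches overlap in these 5 windows. The RefSeq start lies 134 bases inside the 5′ end of the GENCODE gene for Pcna and 41 bases before it for Mcm6, and at most 2 bases from it for the other 3.
Pcna: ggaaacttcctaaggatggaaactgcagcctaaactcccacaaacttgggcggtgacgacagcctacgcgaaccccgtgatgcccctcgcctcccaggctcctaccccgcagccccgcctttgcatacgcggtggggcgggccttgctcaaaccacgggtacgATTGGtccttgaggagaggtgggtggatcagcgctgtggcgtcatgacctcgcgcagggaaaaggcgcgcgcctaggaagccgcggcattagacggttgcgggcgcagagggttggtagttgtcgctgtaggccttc
Mcm6: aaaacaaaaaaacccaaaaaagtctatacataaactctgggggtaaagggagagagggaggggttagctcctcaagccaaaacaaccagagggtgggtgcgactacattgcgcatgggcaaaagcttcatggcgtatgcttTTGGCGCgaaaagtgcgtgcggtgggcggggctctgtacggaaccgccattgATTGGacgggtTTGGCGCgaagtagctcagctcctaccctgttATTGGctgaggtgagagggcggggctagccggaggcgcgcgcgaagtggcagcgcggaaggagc
Mki67: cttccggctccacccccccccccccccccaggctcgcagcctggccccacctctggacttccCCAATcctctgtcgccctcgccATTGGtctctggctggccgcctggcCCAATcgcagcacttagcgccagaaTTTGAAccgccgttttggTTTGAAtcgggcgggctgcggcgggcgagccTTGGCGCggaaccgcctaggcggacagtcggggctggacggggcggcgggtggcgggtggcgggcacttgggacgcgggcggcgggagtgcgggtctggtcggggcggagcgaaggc
Plk1: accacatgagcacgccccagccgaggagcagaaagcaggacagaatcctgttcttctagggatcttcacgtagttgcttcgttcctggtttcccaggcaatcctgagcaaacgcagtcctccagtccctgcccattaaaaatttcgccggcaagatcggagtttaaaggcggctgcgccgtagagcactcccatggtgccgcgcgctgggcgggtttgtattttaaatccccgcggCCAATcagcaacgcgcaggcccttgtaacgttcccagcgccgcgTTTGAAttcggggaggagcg
Ccnb2: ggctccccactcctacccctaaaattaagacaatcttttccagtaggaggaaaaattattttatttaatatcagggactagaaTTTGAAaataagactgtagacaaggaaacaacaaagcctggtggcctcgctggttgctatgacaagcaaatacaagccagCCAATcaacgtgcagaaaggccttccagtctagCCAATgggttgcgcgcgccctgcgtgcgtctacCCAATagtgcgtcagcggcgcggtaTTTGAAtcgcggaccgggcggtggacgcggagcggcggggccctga

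All 39 genes passed the filter on low counts, the least counted being the G1/S cyclin gene Ccne1 with 17 to 88 reads per library. On the scale of mean CPM per kilobase of gene length over the 8 libraries, the p21 gene Cdkn1a stood highest at 161. The replication clamp gene Pcna followed at 31.3 and the helicase gene Mcm3 at 23.9. The other 5 genes of the MCM2 to MCM7 helicase, whose subunits form a ring of 1 copy each, lay between 5.23 (Mcm7) and 9.49 (Mcm5) CPM per kilobase. The D-type cyclins were at 9.93 (Ccnd2), 7.85 (Ccnd1) and 4.08 (Ccnd3), and the lowest of all members was the cyclin gene Ccnb1 at 0.718 CPM per kilobase, with Ccne1 next above it. Ccnb2 stood higher than Ccnb1 on this scale, at 11.4 CPM per kilobase, with means of 7.51 in mtD2+ and 15.4 in mtD2-.

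In mtD2+ macrophages the cyclin genes Ccnd1 and Ccnd2 and the helicase gene Mcm6 were lower, and the replication clamp gene Pcna was higher, than in mtD2- macrophages of the same mice. The other 35 members did not pass the test. Of the 39, 3 fell and 1 rose at an adjusted p under 0.05 (edgeR quasi-likelihood test with the mouse as a block, adjusted over 13933 genes). Across all genes tested, 1.78% fell and 3.72% rose, 5.50% in all. The median log2 fold change, mtD2+ over mtD2-, was −0.10 over the 39 members and −0.001 over all genes tested. The members' median was 0 without mouse 2 and −0.18 without mouse 4. Negative values were found for 26 members, against 50.1% of all genes. The groups of mtD2+ and mtD2- libraries did not overlap for 4 members, all lower in mtD2+ (Ccnd1, Ccnd2, Mcm6 and Ccna2), against 6.01% of all genes lower and 6.55% higher without overlap. Without the mouse as a block 1 member fell (Ccnd1), against 0.510% of all genes lower and 1.06% higher. The DESeq2 Wald test called 4 members lower and 2 higher, against 4.98% and 8.31% of all genes. By limma voom 3 were lower and 1 higher, against 2.67% and 4.98%. Of the members 6 were lower and 1 was higher in mtD2+ in all 4 mice, against 16.0% and 16.3% of all genes. With edgeR, leaving out mouse 1, 2, 3 or 4 gave 0, 1, 0 or 3 calls among the members. Without mouse 2 the call was Mki67, and without mouse 4 the calls were Ccnd1, Ccnd2 and Cdkn1a. Among all genes there were 215, 273, 166 or 555 calls in the same order.

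**Figure D1:**
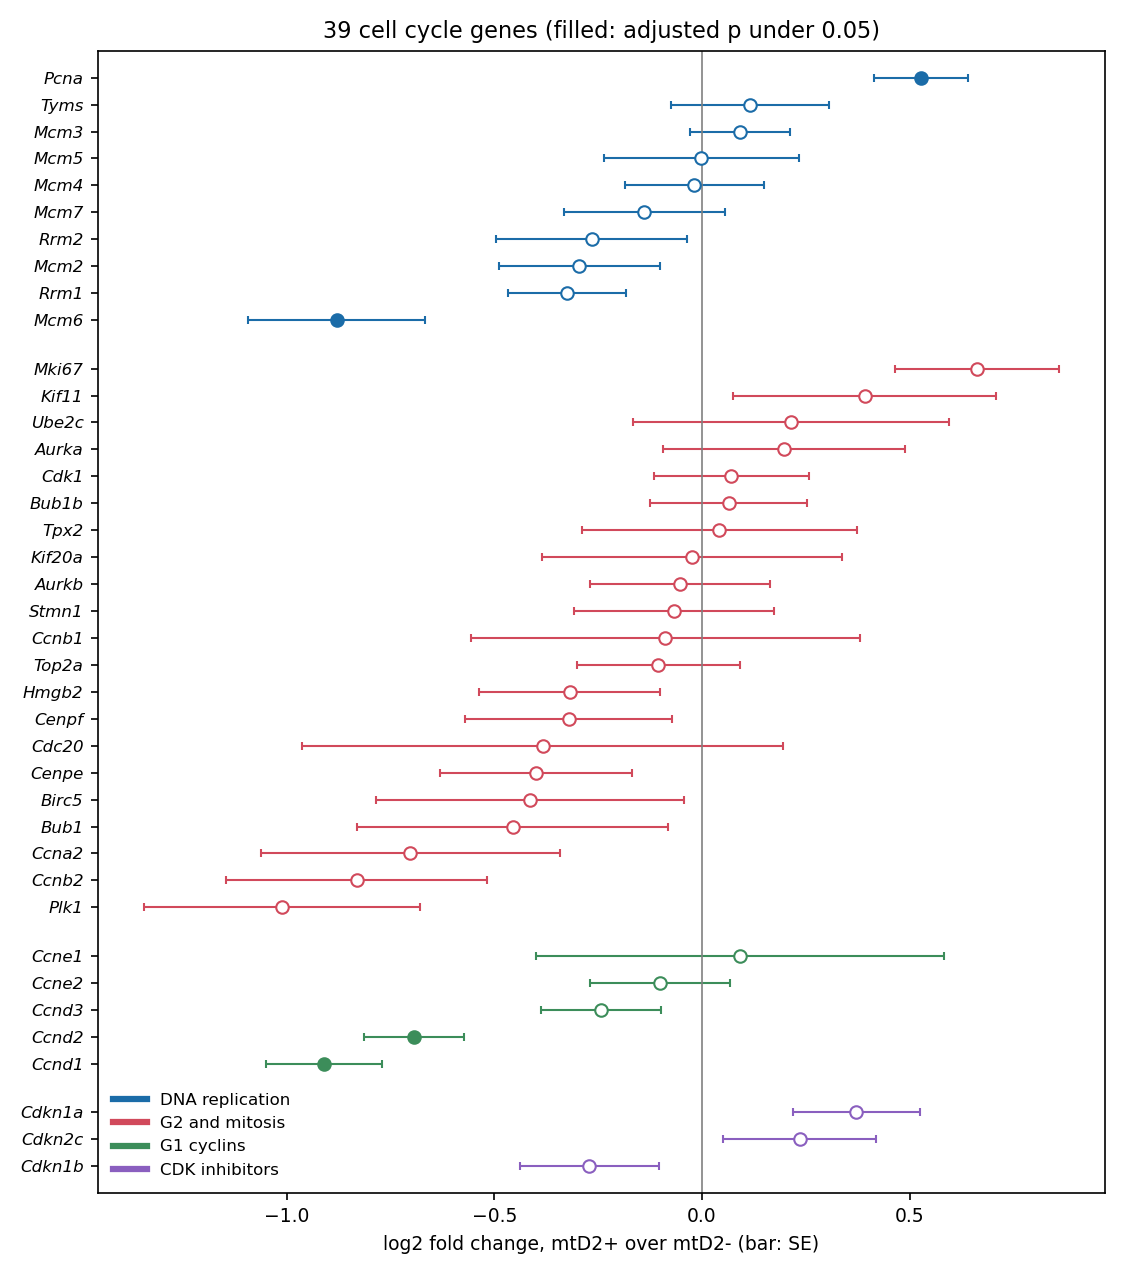
Log2 fold change, mtD2+ over mtD2- (x axis), of the 39 cell cycle genes in 4 groups (rows), with the SE as bars and filled points at an adjusted p under 0.05. The filled points are Pcna at 0.53, Mcm6 at −0.88, Ccnd2 at −0.69 and Ccnd1 at −0.91, and no gene of the mitosis group or the inhibitors is filled.

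The D-type cyclins held the clearest difference. Ccnd1 (cyclin D1, chromosome 7) had 20.6, 24.5, 17.4 and 20.8 CPM in the mtD2+ libraries of mice 1 to 4, against 36.2, 50.1, 31.9 and 39.4 CPM in the mtD2- libraries. The groups did not overlap, and the gene was 1.88-fold lower in mtD2+ (log2 −0.91, SE 0.14, adjusted p = 0.0093). Ccnd2 (cyclin D2, chromosome 6) had 32.05, 44.8, 46.2 and 51.0 CPM in mtD2+, against 61.0, 68.7, 69.5 and 79.6 CPM in mtD2- libraries (log2 −0.69, SE 0.12, adjusted p = 0.0151). Its groups did not overlap either, and in both populations mouse 1 was lowest and mouse 4 highest. Ccnd3 (cyclin D3, chromosome 17) had 37.6, 31.7, 34.5 and 27.6 CPM in mtD2+ and 35.1, 39.1, 43.4 and 37.4 CPM in mtD2- libraries. It was lower in mtD2+ in 3 of 4 mice and did not pass (log2 −0.24, SE 0.15, adjusted p = 0.36).

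Ccnd1 also passed without the mouse block (adjusted p = 0.0327), and Ccnd2 did not (0.0597). Ccnd1 missed the threshold by little without mouse 1, 2 or 3 (adjusted p = 0.0504, 0.0556 and 0.0509 with edgeR). In the same fits Ccnd2 missed it by more (0.0889, 0.0579 and 0.0663). Without mouse 4, Ccnd1 and Ccnd2 passed at 0.0228 and 0.0354. Over these 4 fits the log2 fold changes were −0.94 to −0.87 for Ccnd1 and −0.72 to −0.61 for Ccnd2. The E-type cyclins, which act with Cdk2 at entry into S phase, showed no call. Ccne2 averaged 18.7 ± 4.27 CPM in mtD2+ and 20.0 ± 3.67 CPM in mtD2- (SD, n = 4 each, log2 −0.10, SE 0.17, adjusted p = 0.771), and Ccne1 averaged 2.21 ± 0.98 and 2.21 ± 1.43 CPM in the same order. Exons of Ints8 on the opposite strand overlap 17.4% of the exon bases of Ccne2 in the GENCODE M21 annotation. Ints8 had means of 9.4 CPM in mtD2+ and 9.81 CPM in mtD2-.

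**Figure D2:**
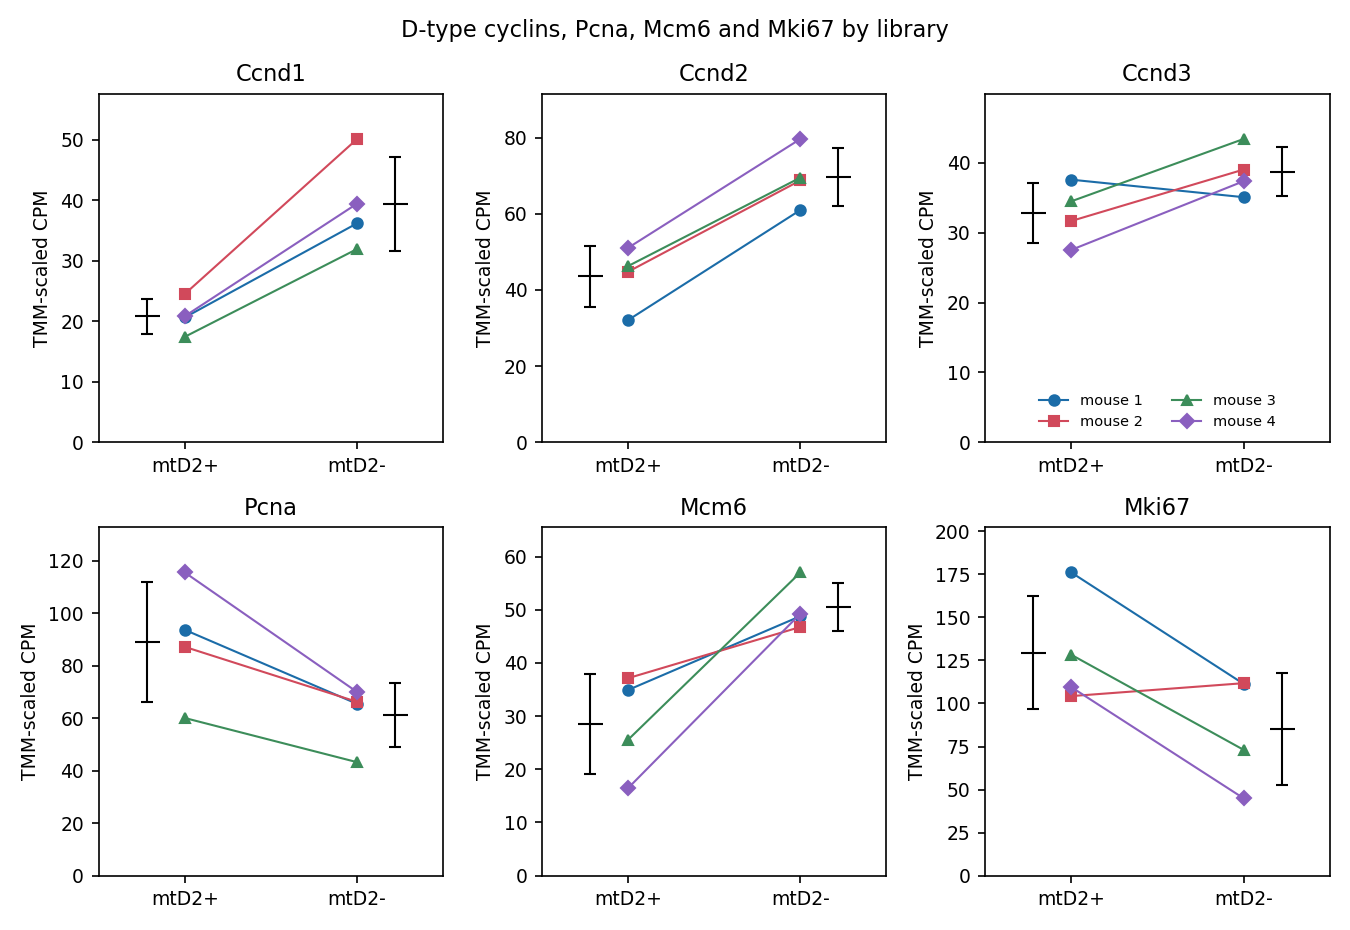
TMM-scaled CPM (y axis) of 6 genes in mtD2+ and mtD2- libraries, with a line and colour for each mouse and black bars for the mean and SD of 4 libraries. Ccnd1, Ccnd2 and Mcm6 are lower in mtD2+ in all 4 mice without overlap, and Pcna is higher in mtD2+ in all 4 mice with overlap (60.1 to 115.5 against 43.2 to 70.0 CPM).

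The summed level of the 5 G1 cyclins was 109 to 127 CPM in mtD2+ and 151 to 185 CPM in mtD2- libraries, and its log2 ratios within mice 1 to 4 were −0.46, −0.60, −0.49 and −0.54 (mean −0.52 ± 0.06 SD). RNA of fibroblast and adipocyte precursor markers was lower in mtD2+ as well. Of 14 such markers, 10 fell and 0 rose, against 1.78% and 3.72% of all genes. None was at 0 counts throughout, and their sum was 631 to 926 CPM in mtD2+ against 1884 to 4690 CPM in mtD2-. The log2 ratios of that sum within mice 1 to 4 were −1.31, −1.03, −1.59 and −2.41. Those of Ccnd1 were −0.78, −1.003, −0.84 and −0.89, and those of Ccnd2 were −0.91, −0.61, −0.58 and −0.63. Monocyte markers also summed lower, at 514 to 685 CPM in mtD2+ and 679 to 892 CPM in mtD2-, with 1 of 7 past the test (Ccr2, log2 −0.74, SE 0.11, adjusted p = 0.00813, or 0.059 without mouse 1 and 0.0615 without mouse 3). B cell markers summed lower in mtD2+ in all 4 mice (log2 ratios −1.18, −1.17, −0.85 and −0.14), with 1 of 4 tested past the test (Cd79b, log2 −0.92, SE 0.21, adjusted p = 0.0419, but 0.13 to 0.168 without mouse 1, 2 or 3). Of the 4 tested B cell markers, however, 2 had negative and 2 had positive log2 fold changes, with a median of 0.185. The macrophage markers also summed lower in all 4 mice (−0.25, −0.06, −0.26 and −0.30), with 2 of 10 called lower (Adgre1 and C1qb) and 1 higher (Mertk). Of these 3, none passed without mouse 1, 3 or 4 or without the block. The part of these cell types in the cyclin difference was not tested. In these bulk libraries, fewer cells that carry an RNA and less RNA per cell cannot be told apart. In the GENCODE M21 annotation, about 23.4% of the exon bases of Ccnd1 are overlapped by exons of LTO1 on the opposite strand. LTO1 stood at a mean of 22.3 CPM in mtD2+ and 24.7 CPM in mtD2-. The total of these Ccnd1 exons is not the deposited gene length, and no source at hand says whether the counting used strand.

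Among the replication genes, 1 rose and 1 fell, and the sum of the group differed between the populations by less than the spread between mice. Pcna, the ring-shaped clamp that holds DNA polymerases on the template (chromosome 2), had 93.6, 87.2, 60.1 and 115.5 CPM in the mtD2+ libraries of mice 1 to 4, against 65.5, 66.2, 43.2 and 70.0 CPM in mtD2- libraries. It was higher in mtD2+ in all 4 mice, although the groups overlapped because the mtD2+ library of mouse 3 was low (log2 0.53, SE 0.11, adjusted p = 0.0311). Mcm6 (chromosome 1) had 34.9, 37.1, 25.6 and 16.5 CPM in mtD2+, against 48.8, 46.8, 57.0 and 49.3 CPM in mtD2- libraries. Its groups did not overlap, and the difference was larger in mice 3 and 4 than in mice 1 and 2 (log2 −0.88, SE 0.21, adjusted p = 0.0492).

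Pcna lost its call without the block (adjusted p = 0.208), with library totals alone as the scale (0.0648) and without any 1 mouse (0.0758 to 0.135, log2 0.46 to 0.57). Mcm6 lost it without the block (0.0902), with DESeq2-style (0.0525) or upper quartile factors (0.056) and without any 1 mouse (0.0676 to 0.199, log2 −1.07 to −0.66). The pseudogenes Pcna-ps1 and Pcna-ps2 held at most 1.75 CPM in a library, so few reads were assigned to these copies of Pcna.

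None of the remaining 5 helicase genes passed the test. Mcm2, Mcm3, Mcm4, Mcm5 and Mcm7 had log2 fold changes of −0.295, 0.09, −0.02, −0.002 and −0.14 (SE 0.12 to 0.24, adjusted p = 0.41 to 0.998). The ribonucleotide reductase genes Rrm1 and Rrm2, which make the deoxynucleotides for replication, stood at −0.325 and −0.27 (adjusted p = 0.215 and 0.534), and the thymidylate synthase gene Tyms at 0.115 (adjusted p = 0.768). The summed level of the 10 replication genes was 429, 436, 310 and 421 CPM in mtD2+ against 404, 455, 388 and 390 CPM in mtD2- libraries of mice 1 to 4, a mean log2 ratio of −0.05 ± 0.20 (SD, n = 4 mice).

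The genes of G2 and mitosis lay on both sides of 0. By edgeR 0 of 21 passed the test, 2 fell and 1 rose at an unadjusted p under 0.05 (11.0% and 11.8% of all genes did so), the DESeq2 Wald test called 1 higher (Mki67) and 1 lower (Plk1), and limma voom called 0. Their median log2 fold change was −0.09, with 14 negative and 7 positive values, and was 0.016 without mouse 2 and −0.195 without mouse 4. Mki67, which encodes the proliferation marker Ki-67 and coats mitotic chromosomes (chromosome 7), had 176, 104, 128 and 110 CPM in the mtD2+ libraries of mice 1 to 4, against 111, 112, 73.1 and 44.9 CPM in mtD2- libraries. It was higher in mtD2+ in mice 1, 3 and 4 and about equal in mouse 2, and did not pass (log2 0.66, SE 0.20, adjusted p = 0.0883). It passed with no filter on low counts (0.029), with DESeq2 (0.00451) and without mouse 2 (0.0402, log2 0.92).

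Plk1, the polo-like kinase that drives entry into mitosis and spindle assembly, had 8.30, 3.82, 2.13 and 8.32 CPM in mtD2+, against 12.3, 15.6, 4.58 and 10.9 CPM in mtD2- libraries. It was lower in mtD2+ in all 4 mice, with overlap and large differences between mice in both groups (log2 −1.01, SE 0.33, adjusted p = 0.114). Ccnb2 (cyclin B2) had 13.4, 11.8, 9.26 and 11.9 CPM in mtD2+, against 14.0, 41.1, 10.1 and 29.7 CPM in mtD2- libraries. Its difference came from mice 2 and 4, whose mtD2- libraries were high (log2 −0.83, SE 0.31, adjusted p = 0.158). Ccna2 (cyclin A2) was the only mitosis gene whose groups did not overlap, at 2.38 to 3.83 CPM in mtD2+ and 4.05 to 7.26 CPM in mtD2- (log2 −0.70, SE 0.36, adjusted p = 0.286). In the GENCODE M21 annotation, exons of Exosc9 on the opposite strand overlap 12.5% of the exon bases of Ccna2. Likewise, exons of Cdc23 overlap 29.3% of those of Kif20a, and exons of Tnnc2 overlap 22.8% of those of Ube2c. Exosc9 had means of 16.7 CPM in mtD2+ and 15.1 CPM in mtD2-, Cdc23 had 22.0 and 30.6 CPM, and Tnnc2 had 0.0 CPM in both. The exon totals of Ccna2 and Kif20a there are not their deposited gene lengths.

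The other 17 members of the group lay between −0.46 and 0.39 on the log2 scale with adjusted p-values of 0.342 to 0.978. Top2a, the topoisomerase that untangles chromosomes, averaged 48.5 ± 3.97 CPM in mtD2+ and 55.5 ± 24.6 CPM in mtD2- (SD, n = 4 each, log2 −0.105, adjusted p = 0.797). Cdk1, the kinase of mitosis itself, averaged 15.5 ± 2.73 and 14.7 ± 1.91 CPM in the same order (log2 0.07, adjusted p = 0.86). The Aurora kinase genes Aurka and Aurkb stood at 0.20 and −0.05, the checkpoint kinase genes Bub1 and Bub1b at −0.46 and 0.065, and the kinetochore genes Cenpe and Cenpf at −0.40 and −0.32. Ccnb1, the other B-type cyclin gene, stood at −0.09, and the spindle genes Tpx2, Kif20a and Stmn1 at 0.04, −0.02 and −0.07. The chromatin protein gene Hmgb2 stood at −0.32. The motor gene Kif11, which pushes spindle poles apart, had the highest value of the 17 at 0.39 (SE 0.32, adjusted p = 0.505). Cdc20 and Ube2c, both of the ubiquitin pathway that ends mitosis, stood at −0.38 and 0.21 (SE 0.58 and 0.38), and single libraries of Cdc20 held no more than 4.39 CPM.

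The mtD2- library of mouse 2 set much of the spread in this group. It held the highest mtD2- level of 17 of the 21 mitosis genes (81%), whereas it was the highest mtD2- library for 23.1% of all genes tested. Within mouse 2, 18 of the 21 genes were lower in mtD2+, against 9, 10 and 11 in mice 1, 3 and 4, and the median within-mouse log2 ratio was −0.78 in mouse 2 against 0.09, 0.03 and −0.08 in mice 1, 3 and 4. Birc5, the survivin gene of the chromosomal passenger complex, had a within-mouse log2 ratio of −1.75 in mouse 2 and 0.39, 0.03 and −0.27 in mice 1, 3 and 4. A further 41 mitosis genes outside the 39 members showed the same library on top, with a summed level of 1118 CPM against 724 to 794 CPM in the other mtD2- and 770 to 821 CPM in the mtD2+ libraries. B cell markers, among which Cd79b held 54.3 CPM of the sum there and Pax5 and Blk failed the filter on low counts, summed to 57.4 CPM in that library, against 19.6 to 33.6 CPM in the mtD2+ and 36.0 to 44.4 CPM in the other mtD2- libraries, and T and NK cell markers to 33.8 CPM, against 49.3 to 55.6 and 41.1 to 52.9 CPM. The part of such cells in the level of mitosis genes was not tested.

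**Figure D3:**
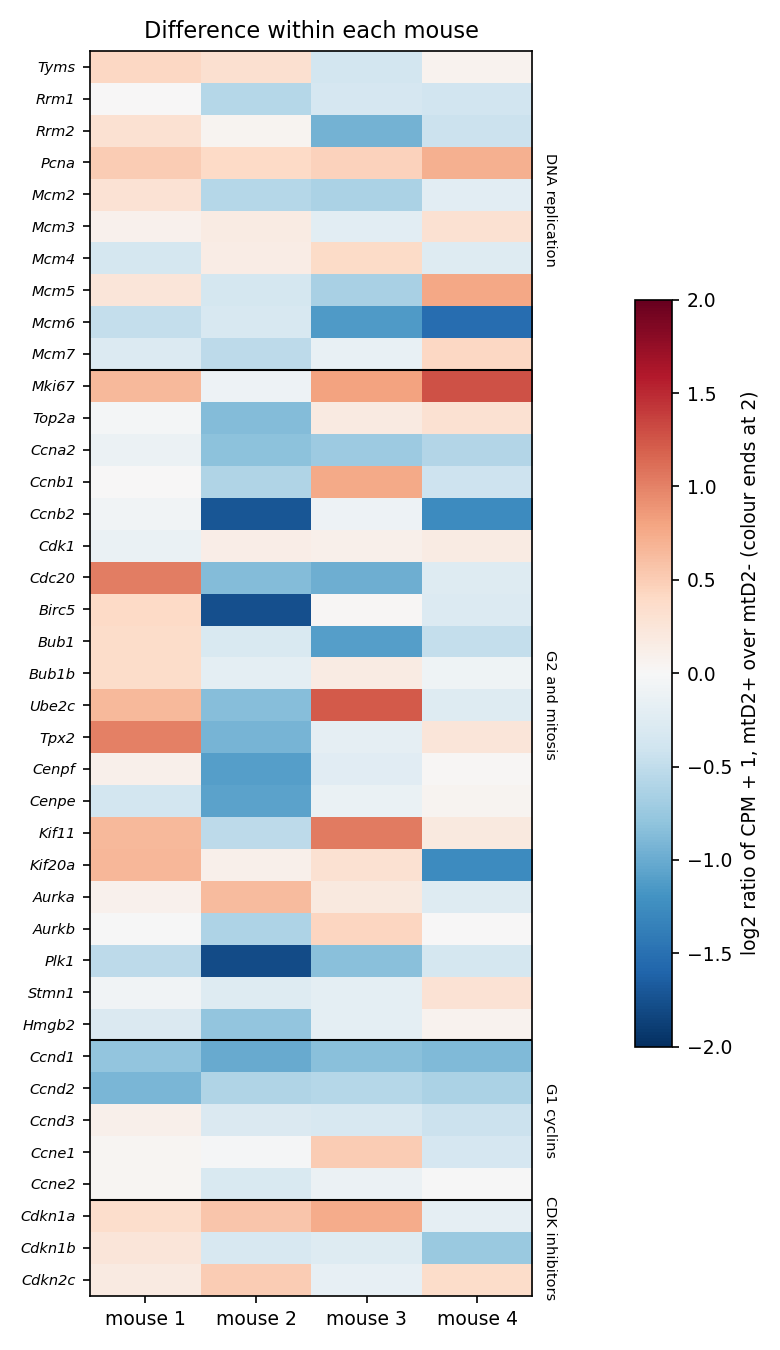
Log2 ratio of CPM + 1, mtD2+ over mtD2-, within each of the 4 mice (columns) for the 39 cell cycle genes (rows, in 4 groups parted by black lines), blue where lower in mtD2+ and red where higher. The column of mouse 2 is blue for 18 of 21 mitosis genes, and the rows of Ccnd1 and Ccnd2 are blue and that of Pcna red in all 4 mice.

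The summed level of the 21 mitosis genes was 421, 343, 346.5 and 366 CPM in mtD2+ against 337, 531, 284 and 325 CPM in mtD2- libraries of mice 1 to 4. The mean log2 ratio was 0.04 ± 0.45 (SD, n = 4 mice), and 0.26 ± 0.08 without mouse 2. Mki67 alone made up 13.8 to 41.9% of this sum. With Mki67 left out, the sums were 245, 238.5, 218 and 256 CPM in mtD2+ against 225.5, 419, 211 and 280 CPM in mtD2-. The log2 ratios in mice 1 to 4 were then 0.12, −0.81, 0.05 and −0.13, with a mean of −0.19 ± 0.43.

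**Figure D4:**
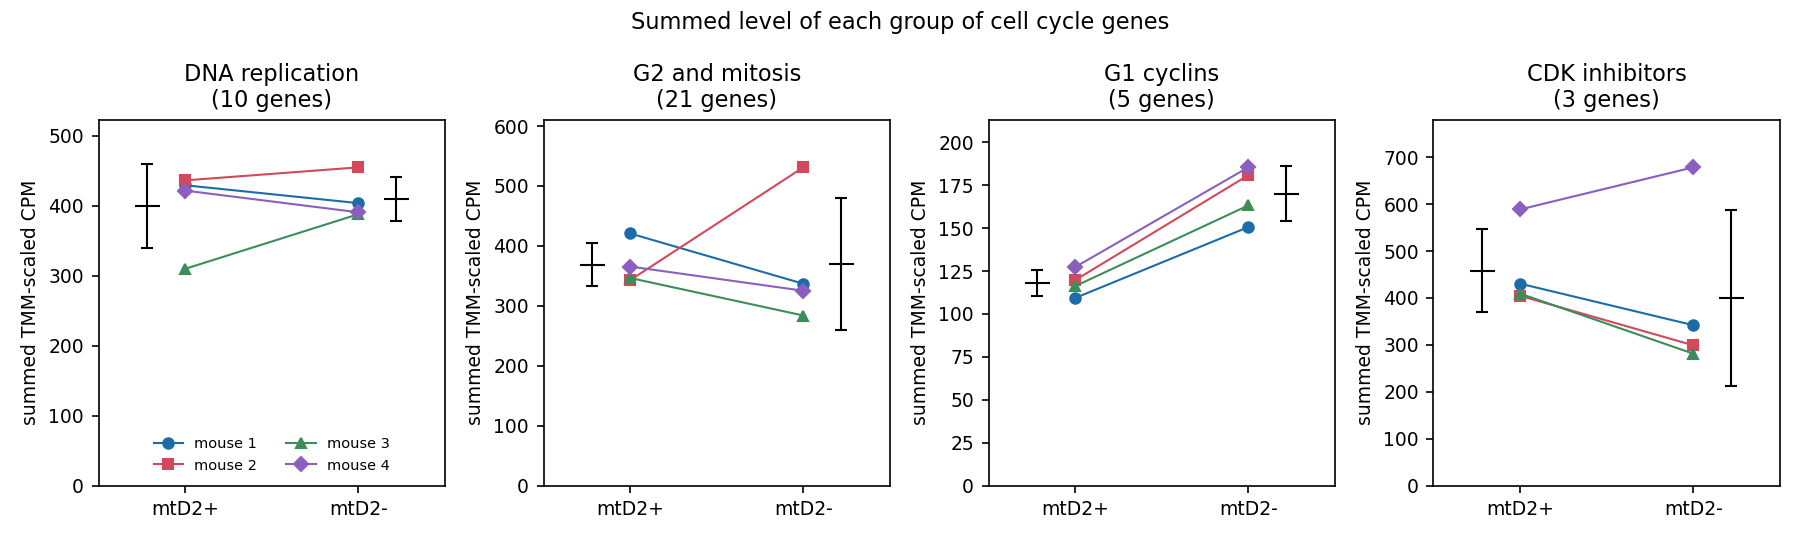
Summed TMM-scaled CPM (y axes, different ranges from 0) of the 4 groups of cell cycle genes in mtD2+ and mtD2- libraries, with a line and colour for each mouse and black bars for the mean and SD of 4 libraries. The sum of the G1 cyclins is lower in mtD2+ in every mouse, though not each of these genes is. Mouse 2 stands apart in mtD2- for the mitosis genes, and mouse 4 is high in both populations for the inhibitors.

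The inhibitors of the cyclin-dependent kinases showed no call, as 0 of 3 passed by edgeR, DESeq2 or limma voom, with 1 higher at an unadjusted p under 0.05. Cdkn1a (p21) had 356, 336, 344 and 526.5 CPM in the mtD2+ libraries of mice 1 to 4, against 279, 229, 205 and 594 CPM in mtD2- libraries. It was higher in mtD2+ in mice 1, 2 and 3 and lower in mouse 4, whose libraries were the highest of both groups (log2 0.37, SE 0.15, adjusted p = 0.19), and without mouse 4 it passed (log2 0.55, adjusted p = 0.0453). A sum of 15 genes that respond to tissue dissociation was also higher in mtD2+ in mice 1 to 3 and lower in mouse 4. For mice 1 to 3 it was 10990 to 12560 CPM in mtD2+ and 7382 to 9178 CPM in mtD2-. For mouse 4 it was 13870 CPM in mtD2+ and 14840 CPM in mtD2-. Of these 15 genes 5 rose and 0 fell, against 3.72% and 1.78% of all genes. Without the block 1 of them rose, against 1.06% of all genes. Without mouse 4, 9 of them rose, against 432 of 14045 genes. The part of these 15 genes in the level of Cdkn1a was not tested.

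Cdkn1b (p27), an inhibitor that holds cells in quiescence, had 54.4, 41.1, 48.4 and 40.2 CPM in mtD2+, against 45.6, 51.4, 58.1 and 67.7 CPM in mtD2- libraries. It was higher in mtD2+ in mouse 1 and lower in the other 3 (log2 −0.27, SE 0.17, adjusted p = 0.374). Cdkn2c (p18), which acts on Cdk4 and Cdk6, averaged 21.3 ± 4.45 CPM in mtD2+ and 17.9 ± 0.99 CPM in mtD2- (SD, n = 4 each, log2 0.235, SE 0.19, adjusted p = 0.492). Cdkn1a made up 72.7 to 89.5% of the summed inhibitors, whose mean log2 ratio was 0.28 ± 0.33 with it and −0.12 ± 0.29 without it.

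Other genes of the cell cycle were read in lists of their own. Of 38 other replication genes 0 passed by edgeR (1 lower and 4 higher at an unadjusted p under 0.05, 1 lower and 3 higher by DESeq2, 1 higher by limma voom). Slbp, the histone mRNA binding protein gene, stood at 0.42 (SE 0.11, adjusted p = 0.0561), and Rpa2, a subunit of the protein that coats single-stranded DNA, at −0.61 (SE 0.16, adjusted p = 0.0604). Of 41 other mitosis genes 0 passed (2 lower and 2 higher at an unadjusted p under 0.05, 1 lower and 1 higher by DESeq2, 0 by limma voom), with the securin gene Pttg1 at 0.41 (adjusted p = 0.0682) and the spindle checkpoint gene Mad2l1 at −0.845 (adjusted p = 0.101). The median log2 fold changes of these 2 lists were −0.05 and −0.07. Of 17 E2F and retinoblastoma genes 0 passed by edgeR (0 lower and 1 higher at an unadjusted p under 0.05, and 1 higher by DESeq2 and by limma voom), with Lin54, the DNA-binding subunit of the MuvB complex that recognises the CHR, at 0.81 (SE 0.215, adjusted p = 0.0654) and E2f1 at −0.35 (adjusted p = 0.258).

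Of 12 other kinase and inhibitor genes tested, 0 passed by edgeR, DESeq2 or limma voom (1 higher at an unadjusted p under 0.05), with Fbxw7 at 0.335 and Cdkn1c at −0.66 (adjusted p = 0.205 and 0.256). The 2 genes of the list that failed the filter were Cdkn2a and Cdkn2b. Among 17 tested p53 target genes, edgeR called 2 higher (the polo-like kinase genes Plk2 and Plk3) and 0 lower, against 3.72% and 1.78% of all genes. At an unadjusted p under 0.05 there were 4 higher and 2 lower, DESeq2 called 4 higher and 1 lower, and limma voom 4 higher and 0 lower. Plk2 averaged 540 CPM in mtD2+ and 317 CPM in mtD2- (log2 0.79, SE 0.15, adjusted p = 0.0195), and Plk3 averaged 71.3 and 48.6 CPM (log2 0.60, SE 0.12, adjusted p = 0.0277), in the order mtD2+ and mtD2-. Both genes are also known as immediate early genes, and both calls were lost without the block (0.0532 and 0.295) and without mouse 1, 2 or 3 (0.073 to 0.139), but held without mouse 4. Of 9 tested regulators of macrophage self-renewal 0 passed by edgeR or limma voom and 1 fell by DESeq2 (3 lower and 0 higher at an unadjusted p under 0.05), with the growth regulator Myc at −0.37 (SE 0.11, adjusted p = 0.0922) and the growth factor gene Csf1 at −1.53 (SE 0.62, adjusted p = 0.187).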

How the data were processed

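Counts of RNA-seq reads per gene were analysed in 8 libraries, 4 mtD2+ and 4 mtD2-, 1 of each from mice 1 to 4. Per the labels, RNA came from an RNeasy Micro extraction and libraries from Clontech's SMARTer Ultra-Low kit, which amplifies cDNA. Per the submitters' processing notes, the authors used bcl2fastq, STAR 2.0.4b and featureCounts 1.45 of Subread on GRCm38. Those notes name no options. The deposited counts are whole reads per Ensembl gene. The deposited CPM scales each count by the library's total. Dividing it by gene length in kilobases gave the deposited RPKM. Neither entered a test. Levels printed here are CPM rescaled by each library's total over tested genes and its TMM factor.

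The main test was edgeR 4.0.16 in R 4.3.3 (quasi-likelihood, TMM, mouse as a block), on 13933 genes kept by its expression filter (minimum count 10, minimum total 15). The SE of a log2 fold change (mtD2+ over mtD2-) is its size divided by the square root of F. Per-mouse ratios use log2(CPM + 1) for single genes. Alternatives used DESeq2 1.42.0 and limma 3.58.1 voom. The pairs come from the mouse given in the labels. Across genes, deviations from the group mean correlated at 0.079, 0.101, 0.209 and 0.316 between the 2 libraries of mice 1 to 4. The mtD2- libraries of mice 1 to 4 correlated with the mtD2+ library of another mouse at no more than 0.07, 0.034, 0.025 and −0.019. Between replicates of a group, chi-square over its degrees of freedom was 35.2 to 155.4, so none were merged. The test was tried on simulated counts. The members and lists were chosen with earlier results of these data known. Named genes are all 39 members and, of other lists, those past the test up to 4 or the 2 with the smallest p. No p is given for sums over members.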

Additional observations from a re-analysis of the deposited data

Results flagged for a closer look

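Over the 39 members, 78 groups of 4 libraries were searched for a library far from the other 3 of its group, and 2 were found. Chance alone gives about 1 in 20 such groups. Pcna stood at 43.2 CPM in the mtD2- library of mouse 3, against 65.5 to 70.0 CPM in the other mtD2- libraries, and its mtD2+ library of the same mouse was also the lowest of its group. Cdkn1a stood at 526.5 CPM in the mtD2+ library of mouse 4, against 336 to 356 CPM in the other mtD2+ libraries, and its mtD2- library of the same mouse was the highest of all 8.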

How the results depend on the processing

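The 4 calls among the members had the same sign under every alternative run. Of all genes tested, 767 passed, 218 without the replicate block and 1816 with the DESeq2 Wald test, and 166 to 555 on leaving out a mouse. Of the members, 4 passed, 1 without the block (Ccnd1) and 0 to 3 on leaving out a mouse. Of the 4, only Ccnd1 and Ccnd2 passed in such a fit, and only without mouse 4. With library totals the split over all genes was 407 higher and 349 lower, against 519 and 248 with TMM factors. The mean log2 ratio of the summed G1 cyclins was −0.52, but −0.37 where each member weighed the same and −0.42 without Ccnd2, an alternative chosen after seeing the data. That of the inhibitors was 0.28 and −0.12 without Cdkn1a, chosen likewise. On leaving out a mouse the mean log2 ratios were −0.10 to 0.05 for the replication genes, −0.06 to 0.26 for the mitosis genes, −0.54 to −0.50 for the G1 cyclins and 0.195 to 0.44 for the inhibitors. The sign of 12 members, none of them called, turned under at least 1 alternative. Leaving out each mouse in turn gave log2 fold changes on both sides of 0 for these genes: Mcm4 −0.15 to 0.099, Mcm5 −0.26 to 0.23, Top2a −0.25 to 0.15, Ccnb1 −0.44 to 0.15, Birc5 −0.71 to 0.059, Bub1b −0.043 to 0.16, Ube2c −0.16 to 0.605, Tpx2 −0.31 to 0.39, Kif20a −0.29 to 0.41, Aurkb −0.21 to 0.150, Stmn1 −0.195 to 0.009 and Ccne1 −0.13 to 0.27. Upper quartile factors turned Mcm4 to 0.010, Mcm5 to 0.027 and Kif20a to 0.005. Mcm5 also turned with DESeq2-style factors (0.010), the filter of 1 CPM in 4 libraries (0.006) and DESeq2 (0.011). Tpx2 turned without the block (−0.080), with library totals (−0.013) and with limma voom (−0.092). The low counts of Ccne1, Ccnb1, Cdc20 and Ccna2 limit what can be seen for these genes.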
